A study of Mus musculus with 6 samples.

Results

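Cytochrome P450 enzymes of families 1 to 3 oxidize drugs, environmental chemicals and many steroids and fatty acids in the liver. The genes examined were those named Cyp1, Cyp2 or Cyp3 with a subfamily letter and a number, without Cyp2e1 and without rows typed as pseudogenes in the deposited gene table. The rule found 49 of the 28880 genes, in 14 subfamilies, and also left out Cyp3a41a and Cyp3a41b, whose names end in a letter, Cyp2ab1, whose subfamily has more than 1 letter, and Cyp2c53-ps, typed as a lncRNA, for the ending of its name. The liver transcriptomes came from 6 male wild type C57BL/6J mice, 6 to 8 weeks of age, and all libraries carry the same batch label. The ethanol group (n = 3) was fasted for 12 h and then given ethanol once by mouth, 6 g/kg as a 50% (v/v) solution, with livers taken 24 h later. The control group (n = 3) received no ethanol, and neither a fast nor a vehicle gavage is stated for it, so effects of ethanol, fasting and gavage cannot be told apart.

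These enzymes sit in the membrane of the endoplasmic reticulum and hold a heme group through a cysteine. They receive electrons from cytochrome P450 reductase (Por) and, for some reactions, from cytochrome b5. Many of their genes are switched on by foreign compounds through the Ah receptor, which acts on Cyp1a genes, the constitutive androstane receptor (CAR, Nr1i3), known for Cyp2b10, and the pregnane X receptor (PXR, Nr1i2), known for Cyp3a11. Several subfamilies are expressed mainly in the hepatocytes around the central vein, and several mouse members differ between the sexes.

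The 30 coding bases around the heme cysteine are shown for some of the members that carry the results, because close paralogs may share reads. They were read from GENCODE M21 transcripts, 5′ to 3′, and capitals mark the cysteine codon.
Cyp2a5: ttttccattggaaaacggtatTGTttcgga
Cyp2a4: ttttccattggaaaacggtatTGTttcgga
Cyp2d9: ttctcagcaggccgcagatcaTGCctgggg
Cyp2d10: ttctcagcaggccgcagatcaTGCctgggt
Cyp2d11: ttctcagcaggacacagatcaTGCctgggg
Cyp2c55: ttctcaataggaaagcgaatgTGCgtggga
Cyp2u1: tttgggatagggaagcgggtgTGTatggga
Cyp3a11: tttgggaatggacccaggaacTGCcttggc
Cyp3a13: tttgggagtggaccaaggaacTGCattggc
Cyp2a5 and Cyp2a4 have the same bases here, and their coding sequences were 94.8% identical over the alignment, with 23 mismatches. Cyp2d10 and Cyp2d11 were 94.7% identical, Cyp2d9 and Cyp2d11 93.3%, and Cyp2d9 and Cyp2d10 92.5%. Of the 48 members with a transcript in that annotation, 29 shared no window of 150 bases, the read length, with a transcript of another gene. Cyp2d13 was the member without a match there, so its windows were not examined. In 3 members, Cyp2c40, Cyp2c67 and Cyp2c69, more than 10% of the windows were shared (29.1%, 13.0% and 22.5%). For Cyp2a5 the share was 5.79%, for Cyp2a4 4.22% and for Cyp2d10 6.4%, and Cyp2c55, Cyp2u1, Cyp3a11 and Cyp3a13 shared none.

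The promoters of 5 called members are shown, the last of which was lower in ethanol-exposed mice. They are RefSeq sequences on GRCm38.p6 that run from 250 bases before to 50 bases after the gene start. Capitals mark exact matches, on either strand, to a TATA box (TATAAA), a nuclear receptor half-site (AGGTCA), an Ah receptor core (GCGTG) or a D-box (TTATGTAA). No matches of different motifs overlapped.
Cyp2a5, chr7:26835089-26835388, plus strand: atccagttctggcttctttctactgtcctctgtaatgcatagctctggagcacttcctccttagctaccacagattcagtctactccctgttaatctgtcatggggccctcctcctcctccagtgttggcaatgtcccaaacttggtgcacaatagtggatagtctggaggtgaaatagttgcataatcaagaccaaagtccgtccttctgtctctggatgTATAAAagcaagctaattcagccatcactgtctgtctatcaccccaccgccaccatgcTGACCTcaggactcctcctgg
Cyp2a4, chr7:26306942-26307241, plus strand: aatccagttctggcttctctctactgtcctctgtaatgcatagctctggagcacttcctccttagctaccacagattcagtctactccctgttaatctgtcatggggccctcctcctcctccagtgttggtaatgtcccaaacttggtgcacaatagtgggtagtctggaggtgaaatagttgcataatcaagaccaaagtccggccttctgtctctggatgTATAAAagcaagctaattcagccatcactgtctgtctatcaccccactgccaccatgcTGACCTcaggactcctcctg
Cyp2b10, chr7:25897408-25897707, plus strand: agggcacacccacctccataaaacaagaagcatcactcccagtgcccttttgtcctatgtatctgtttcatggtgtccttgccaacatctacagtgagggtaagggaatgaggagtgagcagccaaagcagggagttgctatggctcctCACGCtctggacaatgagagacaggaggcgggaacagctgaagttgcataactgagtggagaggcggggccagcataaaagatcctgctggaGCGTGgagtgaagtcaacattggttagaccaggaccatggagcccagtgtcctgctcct
Cyp2d9, chr15:82452127-82452426, plus strand: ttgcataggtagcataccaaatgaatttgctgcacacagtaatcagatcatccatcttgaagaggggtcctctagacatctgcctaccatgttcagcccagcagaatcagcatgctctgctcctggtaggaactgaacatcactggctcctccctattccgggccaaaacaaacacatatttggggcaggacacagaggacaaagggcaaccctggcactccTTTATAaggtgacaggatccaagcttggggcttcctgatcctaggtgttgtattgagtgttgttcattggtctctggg
Cyp2c55, chr19:39006769-39007068, plus strand: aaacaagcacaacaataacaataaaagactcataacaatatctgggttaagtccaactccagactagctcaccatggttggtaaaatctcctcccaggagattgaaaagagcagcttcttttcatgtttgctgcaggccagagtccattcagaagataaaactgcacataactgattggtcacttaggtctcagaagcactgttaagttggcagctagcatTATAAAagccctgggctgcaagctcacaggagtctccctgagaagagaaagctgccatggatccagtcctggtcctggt
The Cyp2a5 and Cyp2a4 promoters were 97.7% identical, with 5 mismatches and 2 gap bases. Both hold a TATA box, 29 and 28 bases before the start, and a half-site after it. Promoters were matched for 41 members, which gave 43 windows because Cyp2c39 and Cyp3a25 have repeated entries. The Cyp3a25 windows start at 146009568 and 146009569, so the same half-sites are counted in each. The Cyp2c39 windows start at 39347096 and 39510572 on chromosome 19, and whether both belong to this gene was not examined. The TATA letters occurred in 24 of the 43 windows (55.8%) and in 13.6% of all 32851 promoters of this length. The half-site letters occurred in 16 windows (37.2%, against 16.3% of all promoters), the Ah receptor core in 6 (14.0%, against 32.4%) and the D-box in 0, against 0.938% of all. Of the 10 promoters of called members, 6 held the TATA letters, 3 the half-site and 2 the Ah receptor core. Paralogs share sequence by descent, so these windows are not independent.

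Each library held 60514417 to 74210869 counted reads, and counting error is small for all but the lowest members. Levels are given as CPM, where TMM sets the effective size of each library, and levels between genes are compared as FPKM, which is also scaled to transcript length. A gene was called when the edgeR quasi-likelihood test gave a Benjamini-Hochberg adjusted p under 0.05 over all 16717 genes tested and a log2 fold change beyond 1. The TMM factors were 0.768 to 0.836 in the ethanol libraries and 1.26 to 1.27 in the control libraries. Without them the fitted log2 change had a median of -0.71 over all genes in place of -0.04, so each difference is relative to the scaling. Of the 45 members fitted under all of 5 scalings and tests, 15 changed sign of the log2 fold change between them, 15 were higher in ethanol-exposed mice under all 5 and 15 lower. In bulk liver, fewer hepatocytes and less RNA per hepatocyte cannot be told apart. Of the 9 hepatocyte markers tested, 3 were called higher and 0 lower, and their summed level was 141245 to 161985 CPM after ethanol and 79243 to 89130 CPM in the controls, with no marker at 0. With TMM scaling 10.4% of all genes tested were called higher and 13.8% lower. Under library size alone 0 of the 9 were called and their median log2 fold change was 0.15. Their part in the results below was not tested.

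In ethanol-exposed mice, 10 members were called higher and 3 lower. Those called higher were Cyp2a4, Cyp2a5, Cyp2b10, Cyp2d9, Cyp2d10, Cyp2d11, Cyp2d12, Cyp2j9, Cyp2t4 and Cyp3a13. Those called lower were Cyp2c55, Cyp2d13 and Cyp2u1. The 10 made up 21.3% of the 47 members tested, where 10.4% of all genes tested were called higher. The 3 made up 6.38%, where 13.8% of all genes were called lower. At an adjusted p under 0.05 with any fold change, 16 members were higher (34.0%, background 21.5%) and 4 were lower (8.51%, background 21.5%). All 3 ethanol libraries lay above all 3 control libraries for 18 members (38.3%, background 28%) and below them for 9 (19.1%, background 31%). The median log2 fold change was 0.23 over the members tested and -0.04 over all genes tested. Under library size alone, 6 members were called higher (5.06% of all genes) and 9 lower (32.2% of all genes), and the members' median was -0.45. The 6 calls of Cyp2a4, Cyp2a5, Cyp2b10, Cyp2c55, Cyp2d13 and Cyp2u1 were made in each of the 16 alternatives that were fitted.

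**Figure D1:**
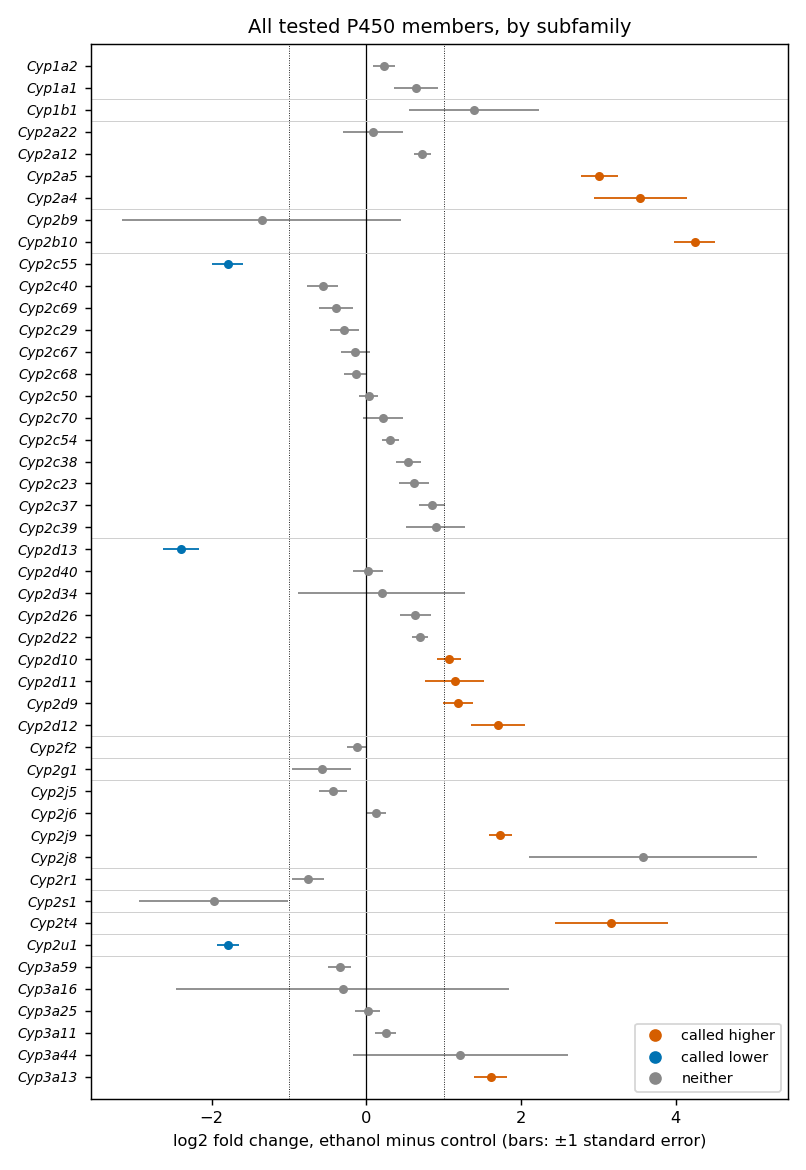
Log2 fold change (ethanol minus control) of the 47 members tested, grouped by subfamily, with bars of 1 standard error; dotted lines mark a log2 fold change of 1 in each direction. The 10 members called higher are in orange and the 3 called lower in blue, and the widest bars belong to members with few counts or uneven libraries such as Cyp2b9, Cyp2j8 and Cyp3a16.

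Cyp2a5, the coumarin hydroxylase that also oxidizes nicotine, was the member with the largest gain in level. Its TMM-scaled level was 2395, 2221 and 1852 CPM in the ethanol-exposed mice and 182, 301 and 318 CPM in the control mice. The groups did not overlap, and ethanol replicate 3 was the lowest of its group. Means were 2156 ± 278 and 267 ± 74.2 CPM (SD, n = 3 each), 8.08-fold higher, with a log2 fold change of 3.01 (SE 0.24, adjusted p = 0.000218). The deposited table places the gene on chromosome 7, from 26534730 to 26542973 on the plus strand. Cyp2a4, its near-identical neighbour and a steroid hydroxylase that is higher in female liver, reached 6.74, 8.08 and 2.99 CPM against 0.511, 0.184 and 0.826 CPM in controls. The groups were again separate, at a level far below that of Cyp2a5. Its log2 fold change was 3.54 (SE 0.60, adjusted p = 0.00357), and it is uncertain because a share of its windows match Cyp2a5 (4.22%). Cyp2a12, another steroid hydroxylase, was not called, with a log2 fold change of 0.72 (SE 0.11, adjusted p = 0.00244) and means of 790 and 479 CPM. Cyp2a22 lay at 1.23 to 3.12 CPM after ethanol and 1.65 to 2.004 CPM in controls, and these ranges overlap. Summed over its 4 members, Cyp2a was 2953 ± 340 CPM against 748 ± 57.8 CPM, a called log2 fold change of 1.98 (SE 0.14, adjusted p = 0.000138).

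Cyp2b10, the enzyme best known for its induction by phenobarbital through CAR, rose most among the called members. It measured 74.9, 87.7 and 106 CPM after ethanol and 6.25, 3.40 and 4.46 CPM in control mice. The lowest ethanol-exposed mouse lay far above the highest control mouse. Means were 89.5 ± 15.6 and 4.70 ± 1.44 CPM (SD, n = 3 each), 19.0-fold higher, with a log2 fold change of 4.25 (SE 0.26, adjusted p = 9.88e-05). It lies on chromosome 7 of the deposited table, from 25597045 to 25626049, and none of its 150-base windows occur in another gene's transcript. Of the other Cyp2b genes, Cyp2b9 had 0, 0.687 and 0 CPM against 1.27, 0 and 0.510 CPM and was not called (adjusted p = 0.568). Cyp2b13, with at most 4 counts in a library, did not pass the filter on low counts. The Cyp2b sum therefore follows Cyp2b10, at 89.8 and 5.31 CPM (log2 fold change 4.08, SE 0.31, adjusted p = 0.000196).

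**Figure D2:**
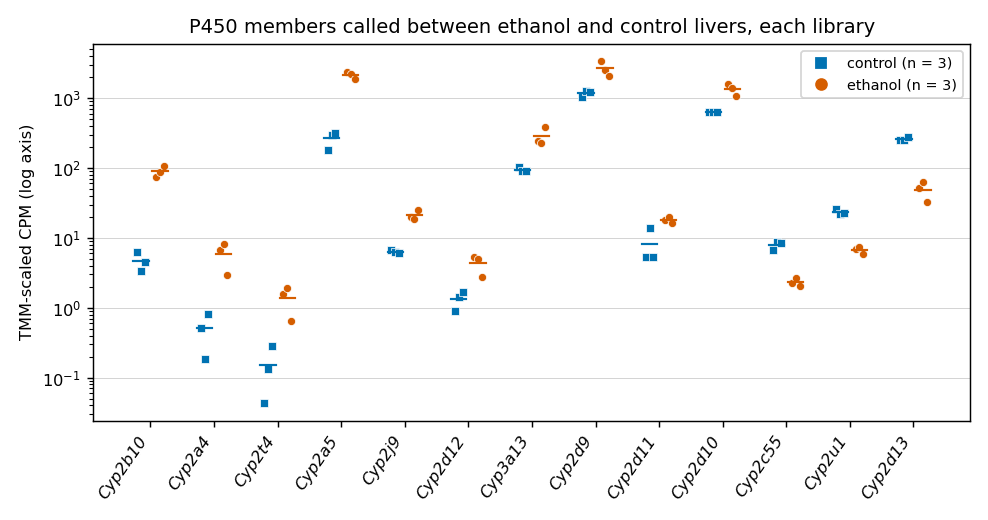
TMM-scaled CPM on a log axis for the 13 called members, 1 point per library (squares control, circles ethanol, n = 3 each), with a line at each group mean. Cyp2b10, at the left, has the largest fold among them, Cyp2a5 rises from 267 to 2156 CPM on average, and Cyp2c55, Cyp2u1 and Cyp2d13, at the right, are lower in all ethanol-exposed mice.

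The Cyp2d genes encode enzymes for basic drugs and steroids, and its 9 members included both directions. Cyp2d9, a steroid hydroxylase that predominates in male mouse liver, measured 3384, 2537 and 2088 CPM in ethanol-exposed mice and 1038, 1274 and 1206 CPM in control mice. The groups were separate, and ethanol replicate 1 was the highest of the 6 libraries. The log2 fold change was 1.19 (SE 0.19, adjusted p = 0.00316). Cyp2d10 measured 1566, 1380 and 1072 CPM against 641, 637 and 639 CPM, a log2 fold change of 1.07 (SE 0.15, adjusted p = 0.00192). Its 3 control mice were almost equal. Both calls were lost without ethanol replicate 1, where the log2 fold changes were 0.98 and 0.94, under library size alone, where they were 0.52 and 0.40, and with limma on FPKM. The Cyp2d10 call was also lost with upper quartile scaling (0.97) and at a mean FPKM of at least 1 (0.96), so that it was made in 10 of 16 alternatives and that of Cyp2d9 in 12. Cyp2d11 measured 17.8, 19.8 and 16.1 CPM against 5.27, 13.8 and 5.36 CPM (log2 fold change 1.14, SE 0.38, adjusted p = 0.0446). Control replicate 2 stood apart from the other control mice, and without it the call was kept at a log2 fold change of 1.75. The call was lost in 11 of 16 alternatives. Cyp2d12, a low member, was called at 4.36 against 1.34 CPM (log2 fold change 1.70, adjusted p = 0.00804), but not with limma on log2(FPKM + 1), where it was at 0.38, or on log2(FPKM + 0.1).

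Cyp2d13 moved the other way. It measured 51.8, 62.3 and 32.6 CPM in ethanol-exposed mice and 249, 251 and 273 CPM in control mice. All 3 ethanol-exposed mice lay far under the controls, 5.28-fold lower on average, with a log2 fold change of -2.40 (SE 0.23, adjusted p = 0.000435). Because no GENCODE M21 transcript matched Cyp2d13, reads shared with other Cyp2d genes were not examined for it. In the deposited table it lies at 82520388 to 82526247 on the minus strand of chromosome 15, where it overlaps Gm54414 on the same strand and Gm49431 on the opposite strand, and whether counting used the strand is not given in the sources used here. Cyp2d26, the third Cyp2d gene by FPKM, measured 1000, 1126 and 649 CPM against 631, 595 and 563 CPM and was not called (log2 fold change 0.63, SE 0.20, adjusted p = 0.0405). Cyp2d22, for which means were 324 and 200 CPM, was not called either (log2 fold change 0.69, adjusted p = 0.00188). The Cyp2d sum was 5383 ± 1117 CPM after ethanol and 2929 ± 101 CPM in control mice. Its log2 fold change of 0.88 (SE 0.17, adjusted p = 0.00567) did not reach the fold needed for a call, and it reached 1.04 without ethanol replicate 3. With library size alone it was 0.21.

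Among the 14 Cyp2c genes, which oxidize fatty acids, steroids and drugs, 1 of 13 tested was called. Cyp2c55, an arachidonic acid hydroxylase also expressed in the gut, measured 2.28, 2.63 and 2.02 CPM after ethanol and 6.67, 8.85 and 8.48 CPM in control mice. The groups did not overlap, and the fall was 3.46-fold (log2 fold change -1.79, SE 0.20, adjusted p = 0.000753). Cyp2c29, the second Cyp2c gene by FPKM and an epoxygenase of arachidonic acid, measured 867, 786 and 522 CPM against 902, 885 and 868 CPM. All 3 ethanol-exposed mice were below the controls, 1 of them by under 1 CPM, and it was not called (log2 fold change -0.29, SE 0.19, adjusted p = 0.256). Cyp2c70, which makes muricholic acids in mice, measured 671, 473 and 954 CPM against 490, 693 and 622 CPM, with both the lowest and the highest mouse in the ethanol group. Its log2 fold change of 0.22 (SE 0.26, adjusted p = 0.524) changed sign without ethanol replicate 3 (-0.06). The other members not called ran from a log2 fold change of -0.57 for Cyp2c40 to 0.90 for Cyp2c39. Under library size alone Cyp2c40 (-1.24) and Cyp2c69 (-1.05) were called lower, as was Cyp2c40 with limma on log2(FPKM + 1) (-1.11). Cyp2c65, with at most 12 counts in a library, was not tested. The Cyp2c sum was 3640 ± 368 and 3343 ± 46.3 CPM (log2 fold change 0.12, SE 0.12, adjusted p = 0.423), and it was -0.54 under library size alone.

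Cyp3a11, the main Cyp3a enzyme of adult mouse liver and a target of PXR, was the most abundant member, with a mean of 985 FPKM over all libraries. It measured 6448, 5984 and 4941 CPM after ethanol and 5022, 4892 and 4688 CPM in control mice. The ranges overlapped, since ethanol replicate 3 lay below control replicate 1, and the gene was not called (log2 fold change 0.25, SE 0.13, adjusted p = 0.17). Under library size alone the value was -0.42. Cyp3a13, which is also expressed in the intestine, measured 247, 227 and 391 CPM against 104, 90.1 and 89.3 CPM. The ethanol group lay above the controls in full, with replicate 3 highest, and it was called (log2 fold change 1.61, SE 0.22, adjusted p = 0.0015), but not under library size alone (0.93) or with limma on FPKM. It overlaps Gm15502 on the same strand and Gm57266 on the opposite strand in the deposited table. Cyp3a25 was at 578, 556 and 404 CPM against 544, 486 and 492 CPM, with a log2 fold change of 0.01 (SE 0.16, adjusted p = 0.948). The Cyp3a sum was 6635 ± 795 and 5521 ± 210 CPM (log2 fold change 0.27, SE 0.13, adjusted p = 0.13).

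Cyp3a16, a fetal and female form that was singled out after its values were seen, had 0, 1715 and 0 counts in ethanol-exposed mice and 1341, 1557 and 0 counts in control mice. Libraries of the same group thus ran from 0 to over 1000 counts, and no direction can be read (adjusted p = 0.92). Cyp3a44, its neighbour, had 544, 0 and 59 counts against 219, 90 and 84. Summed with Cyp3a41a and Cyp3a41b, these 4 genes had 849, 1804 and 59 counts after ethanol and 1934, 3815 and 2742 counts in control mice. After TMM scaling the sums were 14.8, 29.5 and 1.08 CPM against 20.6, 50.1 and 33.3 CPM, so every library holds reads of the group and the ranges overlap. Cyp3a16 and Cyp3a44 coding sequences were 92.5% identical, yet neither shared a window of 150 bases with another transcript. For Cyp3a41a the share of windows found in another transcript was 82.9%. The cause of the uneven counts of Cyp3a16 and Cyp3a44 was not tested, and these genes are uncertain as single rows.

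Cyp1a2, the caffeine-oxidizing enzyme of the pericentral zone, measured 960, 730 and 747 CPM after ethanol and 645, 687 and 753 CPM in control mice. The groups overlapped (log2 fold change 0.23, SE 0.14, adjusted p = 0.241). Cyp1a1, the classical Ah receptor target, was low in both groups, at 1.21 to 1.67 CPM and 0.788 to 1.02 CPM, and was not called (log2 fold change 0.65, SE 0.29, adjusted p = 0.105). Cyp1b1, an enzyme mostly of tissues other than liver, had 41, 28 and 29 counts against 12, 37 and 3 (log2 fold change 1.39, SE 0.84, adjusted p = 0.22). Without control replicate 2 it would have been called, at 2.75.

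The Cyp2j genes make epoxides of arachidonic acid. Cyp2j9 measured 20.0, 18.3 and 25.0 CPM against 6.68, 6.23 and 6.11 CPM, with separate groups and an even control group. It was called at a log2 fold change of 1.73 (SE 0.15, adjusted p = 0.000301), and the call was lost with limma on log2(FPKM + 1), at 0.80. Cyp2j5, by far the most abundant of the subfamily, was at 350, 368 and 235 CPM against 475, 408 and 404 CPM, lower in all ethanol-exposed mice but not called (log2 fold change -0.43, SE 0.18, adjusted p = 0.0947). It was called lower under library size alone, at -1.09. The Cyp2j sum, which Cyp2j5 dominates, had a log2 fold change of -0.29 (SE 0.14, adjusted p = 0.13), whereas the median over the 4 members was 0.93. Cyp2j8, also singled out after its values were seen, had 0, 36 and 210 counts in ethanol-exposed mice and 12, 8 and 11 in control mice, and ethanol replicate 3 holds most of the difference (adjusted p = 0.0879).

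Cyp2u1, a hydroxylase of long-chain fatty acids, measured 7.02, 7.39 and 5.85 CPM after ethanol and 25.9, 21.7 and 22.7 CPM in control mice. Both groups were tight and far apart, with a 3.47-fold fall (log2 fold change -1.79, SE 0.14, adjusted p = 0.000216). The table lists it at 131082090 to 131096873 on the minus strand of chromosome 3, overlapping 4930534D22Rik on the opposite strand. Cyp2r1, the liver vitamin D hydroxylase, was at 8.03, 7.57 and 5.003 CPM against 11.5, 10.7 and 12.6 CPM. It was lower in every ethanol-exposed mouse but short of the fold for a call (log2 fold change -0.76, SE 0.20, adjusted p = 0.0214), which it reached under library size alone, at -1.42. Cyp2f2, the second most abundant member by FPKM and an enzyme for naphthalene, was at 1384, 1299 and 1115 CPM against 1340, 1475 and 1310 CPM and was not called (log2 fold change -0.12, SE 0.13, adjusted p = 0.471). Under library size alone it was at -0.79 (edgeR adjusted p = 0.00261), and with limma on log2(FPKM + 1) also at -0.79, still short of the fold for a call.

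The remaining subfamilies had few counts. Cyp2t4 had 89, 116 and 35 counts against 4, 10 and 23, with separate groups and a called log2 fold change of 3.17 (SE 0.73, adjusted p = 0.012). The call was lost without control replicate 2 (log2 fold change 3.08) and with limma on log2(FPKM + 1) (0.53), and the gene overlaps Egln2 on the opposite strand, so its reads are uncertain. Cyp2s1 had 15, 12 and 0 counts against 34, 57 and 59 (log2 fold change -1.98, SE 0.96, adjusted p = 0.135). Cyp2g1, an enzyme of the olfactory mucosa, had 24, 34 and 24 counts against 82, 49 and 49 (log2 fold change -0.58, adjusted p = 0.253). Both were lower in all ethanol-exposed mice and neither was called, though under library size alone Cyp2g1 was called lower at -1.24.

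The make-up of the P450 pool does not depend on the scaling between libraries, because each share is taken within a library. Cyp2a made up 15.4%, 15.7% and 16.0% of the members' summed FPKM in the ethanol-exposed mice and 4.25%, 4.95% and 5.28% in the control mice. The Cyp2d share was 32.0%, 31.1% and 27.6% against 23.5%, 24.3% and 23.9%. Both were higher in every ethanol-exposed mouse, and the Cyp2a shares were close to equal within the group. The other large subfamilies had lower shares in every ethanol-exposed mouse. The Cyp2c share was 20.2% against 26.3% on average, the Cyp3a share 18.5% against 22.7%, the Cyp2f share 7.72% against 12.2% and the Cyp1a share 4.99% against 6.22%. Shares add to a fixed total, so a gain in some lowers the others. With 3 against 3 mice an exact permutation test cannot give a p under 0.1. Cyp2a5 alone rose from 2.32% ± 0.63 to 12.8% ± 0.17 of the pool (SD, n = 3 each), and the 10 most abundant members held 77.7% to 79.3% of it after ethanol and 72.6% to 75.4% of it in the controls.

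**Figure D3:**
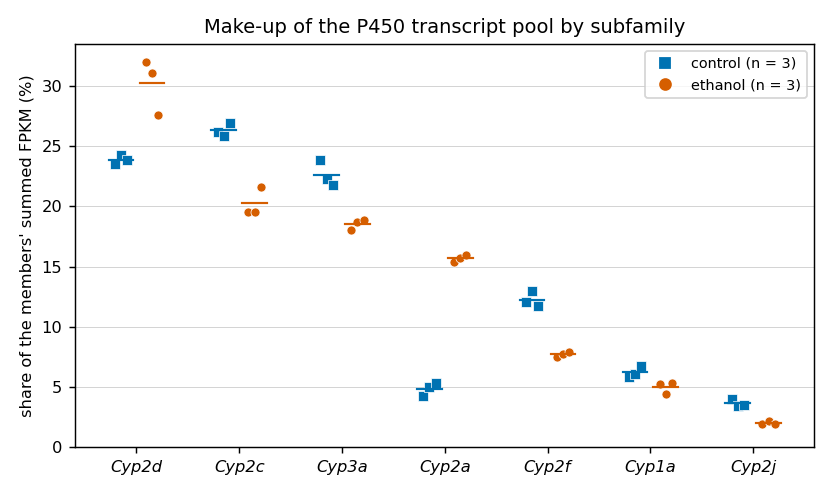
Share of the members' summed FPKM (percent) held by the 7 largest subfamilies, 1 point per library (squares control, circles ethanol, n = 3 each), with a line at each group mean. Cyp2a rises from 4.25% to 5.28% in control mice to 15.4% to 16.0% in ethanol-exposed mice, and the groups do not overlap in any of the 7 subfamilies.

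The level of the whole pool depended on the scaling. The summed members were at 23884, 21572 and 18150 CPM in ethanol-exposed mice and 15115, 15320 and 15014 CPM in control mice with TMM scaling. The groups were separate with higher values after ethanol (exact permutation test, two-sided, p = 0.1, the smallest the design allows). In FPKM the sums were 6636, 6458 and 4976 against 6505, 6635 and 6514, which overlap (exact permutation p = 0.5). As CPM without TMM factors, the means were 16840 ± 2538 and 19093 ± 210 (SD, n = 3 each), the reverse order (exact permutation p = 0.1). The direction of the total is therefore not established. Ethanol replicate 3 had the lowest level of the ethanol group for 33 of the 47 members tested (70.2%) and for 39.1% of all genes tested.

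**Figure D4:**
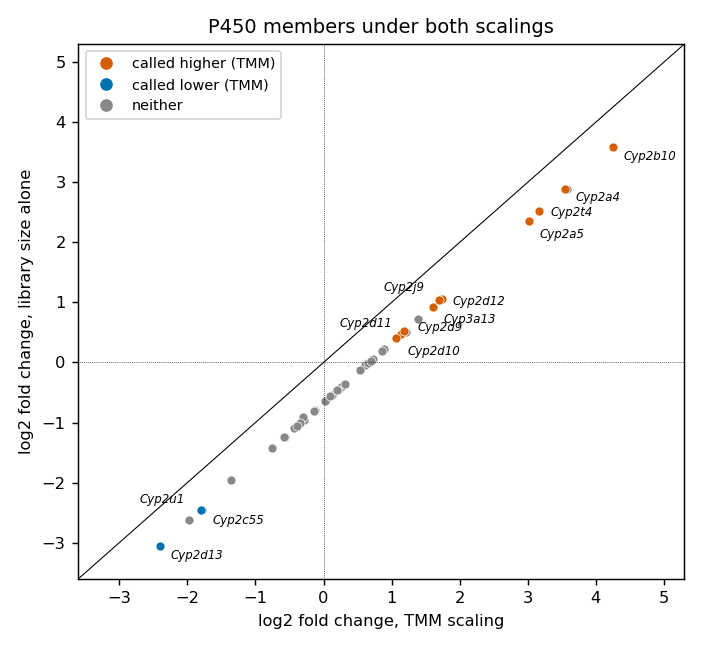
Log2 fold change of the 47 members with TMM scaling (horizontal) and with library size alone (vertical); the solid line marks equal values. All points lie below the line, the members called with TMM scaling are named, and Cyp2d9, Cyp2d10, Cyp2d11 and Cyp3a13 fall below 1 on the vertical axis.

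Genes that serve P450 enzymes were examined by lists. For the lists below, 10.4% of all genes tested were called higher and 13.8% lower. Under library size alone these shares were 5.06% and 32.2%. Por, the reductase that supplies electrons to all microsomal P450 enzymes, measured 1171, 1115 and 940 CPM after ethanol and 97.0, 80.2 and 80.8 CPM in control mice. This was 12.5-fold higher with no overlap (log2 fold change 3.64, SE 0.15, adjusted p = 4.51e-05). Of the 6 electron transfer partners, 2 were called higher (Por and Cyb5a) and 2 lower (Cyb5b and Pgrmc2). Cyb5a, the microsomal cytochrome b5, was called at 1.08 on the log2 scale (adjusted p = 0.000416), and under library size alone it stood at 0.41 and was not called. Cyb5b, the form of the outer mitochondrial membrane, fell by 1.93 on the log2 scale (adjusted p = 0.000328).

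Of 8 heme synthesis genes, 1 was called higher and 3 lower. Alas1, the rate-limiting first enzyme, measured 1014, 857 and 874 CPM against 110, 148 and 119 CPM, with the groups far apart (log2 fold change 2.86, SE 0.16, adjusted p = 7.45e-05). The later enzymes Uros, Cpox and Ppox had log2 fold changes of -2.25, -1.16 and -1.004 and were called lower. Hmox1, the heme oxygenase that is inducible, measured 18.5, 17.2 and 43.0 CPM against 7.74, 8.91 and 7.88 CPM. With Blvrb it made 2 of 4 heme breakdown genes called higher (log2 fold changes 1.68 and 1.06), though under library size alone neither was called (0.998 and 0.39).

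Of the 5 xenobiotic sensors and partners, Ahr, Arnt and Nr1i2 were called higher (log2 fold changes 1.70, 1.48 and 1.198), none of them under library size alone, where the values were 1.05, 0.82 and 0.54. Nr1i3, which encodes CAR, measured 163, 172 and 126 CPM against 113, 102 and 109 CPM and was not called (log2 fold change 0.51, SE 0.14, adjusted p = 0.0221). Its sign turned under library size alone (-0.16) and with limma on log2(FPKM + 1) (-0.17). Of 10 targets of CAR and PXR other than P450 genes, Gadd45b (log2 fold change 7.59) and Slco1a4 (1.38) were called higher and 0 lower. With library size alone, Slco1a4 was not called (0.72) and Aldh1a7 was called lower (-1.51). Tiparp, an Ah receptor target, measured 216, 237 and 101 CPM against 4.997, 2.56 and 4.13 CPM and was called (log2 fold change 5.57, SE 0.43, adjusted p = 0.000198). Nqo1, another such target, was at 3.205 to 4.105 and 3.22 to 3.79 CPM, which overlap.

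**Figure D5:**
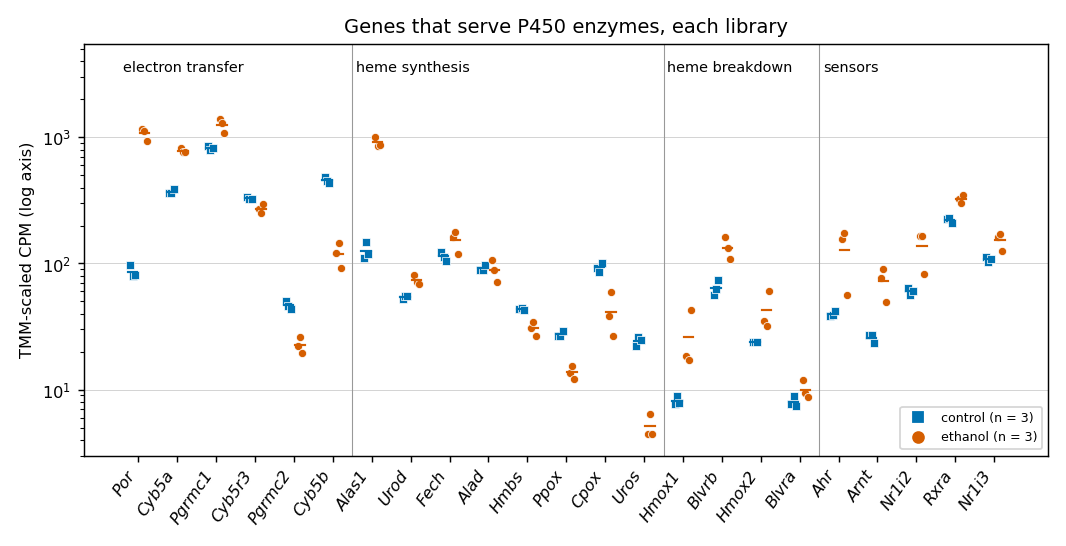
TMM-scaled CPM on a log axis for 23 genes of electron transfer, heme synthesis, heme breakdown and xenobiotic sensing, 1 point per library (squares control, circles ethanol, n = 3 each), with a line at each group mean. Por and Alas1 stand out, at 1076 against 86.0 CPM and 915 against 126 CPM on average, while Uros and Cyb5b are lower in all ethanol-exposed mice.

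Transcription factors that act on P450 promoters gave 4 called higher and 1 lower of 11 (all genes 10.4% higher and 13.8% lower). Cebpb, a factor of the acute and fasting responses, had a log2 fold change of 3.30 (709 against 72.1 CPM, adjusted p = 6.4e-05). The clock output factors Dbp and Tef had log2 fold changes of 4.76 and 1.32, and Onecut1 one of 1.11. Nr0b2, the small heterodimer partner that represses bile acid synthesis, was called lower at -2.92 (5.69 against 42.9 CPM). Hnf4a, which many members need, was at 656 against 405 CPM (log2 fold change 0.69, adjusted p = 0.00243) and was not called. Of 11 oxidative enzymes outside the P450 family, Fmo2 was called higher and Aox3 lower. Tef, Onecut1 and Fmo2 were not called under library size alone (0.65, 0.43 and 0.64), where the transcription factors gave 2 called higher and 3 lower.

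Markers of zones and other cells were counted in the same fit, where 10.4% of all genes tested were called higher and 13.8% lower. Of 10 pericentral genes, 2 were called higher (Cyp2e1 and Slc1a2) and 2 lower (Lgr5 and Axin2), with a median log2 fold change of 0.21. Of 10 periportal genes, 5 were called higher and 1 lower, with a median of 0.68. Glul, a defining pericentral gene, was at 616, 539 and 574 CPM against 404, 653 and 799 CPM, which overlap. Kupffer cell markers gave 0 edgeR calls of 8 (3 at an unadjusted p under 0.05), at 99.1 to 134 and 121 to 131 CPM in sum, and 3 of 7 endothelial markers were called lower and 1 higher. Stellate cell markers gave 0 calls of 7 (3 at an unadjusted p under 0.05), and 1 of 6 cholangiocyte markers was called higher. Of 4 neutrophil markers tested, 3 were called higher, at sums of 2.71 to 13.7 against 1.15 to 1.63 CPM, and of 5 erythroid markers 4, at 579 to 864 against 180 to 220 CPM. T cell markers (sums of 0.556 to 0.770 against 2.05 to 2.76 CPM) and B cell markers (0.898 to 2.78 against 1.35 to 2.55 CPM) each gave 1 called lower. Markers of kidney tubule were at 0.0695 CPM or less in every library, those of pancreas at 1.78 CPM or less, and of 3 intestinal markers tested 1 was called higher. Under library size alone the calls were 0 higher and 2 lower for pericentral genes, 2 and 2 for periportal genes, 0 and 3 for Kupffer cells, 0 and 2 for stellate cells and 1 and 4 for endothelial cells, where 5.06% of all genes were called higher and 32.2% lower. The part of these cells in the P450 values was not tested.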

How the data were processed

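Liver RNA was sequenced as paired reads of 150 bases in 3 ethanol and 3 control libraries, grouped by their labels. The authors deposited 1 table with a whole-number count of reads per gene, not normalized, and an FPKM value for each library; the aligner and counter are not given in the sources used here. The submitters' processing notes name GRCm38 and mm10, yet only 494 of 27049 genes shared with GENCODE M21 (GRCm38) had the same start and end, so the build of the table's positions is not established and they are printed as deposited. A further column of counts (1) matched no library and was not used, and genes that are near-identical or overlap are uncertain.

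Counts were filtered by filterByExpr, scaled by TMM and tested by edgeR 4.0.16 (quasi-likelihood, two-sided, no covariates, R 4.3.3) over the 16717 genes kept; 2 members, Cyp2b13 and Cyp2c65, did not pass. The test was repeated with the members of each subfamily summed. It was tested on simulated data. Alternatives were DESeq2 1.42.0, limma 3.58.1 on log2(FPKM + 1) and log2(FPKM + 0.1), other scalings and filters, a replicate block and each library left out. Promoters and transcripts were read with Biopython 1.88. Named are called members that average 1 FPKM or more, the most abundant member of each subfamily and the 10 most abundant members; others, such as Cyp2d12, Cyp2d22, Cyp1a1 and those said to be singled out, were chosen after their values were seen. The members and lists were chosen with earlier results of these data known. Libraries of a group differed by more than sampling noise, so none was the same library sequenced again. Separate libraries of the same mouse could not be told apart in this way. Standard errors were derived from the log2 fold change and F statistic of the edgeR fit, and SDs are over the mice of a group. Both hold the spread between mice, which in the standard errors is drawn partly from other genes.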

Additional observations from a re-analysis of the deposited data

How the results depend on the processing

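The number of mice, 3 per group, and the scaling between libraries limit the P450 results, and low counts limit members such as Cyp2b13 and Cyp2c65. Library size alone and limma on FPKM, which both leave out the TMM factors, gave other counts and turned small differences. Where a cause is not named below, the cause was not tested. Library size alone gave 6 members called higher and 9 lower, a median log2 fold change of -0.45 (all genes -0.71) and a total of all members of -0.18. limma on log2(FPKM + 1) gave 3 and 6 of 45 with a median of -0.25 (all genes 2.55% and 10.7%, median -0.31), and on log2(FPKM + 0.1) 5 and 8 with a median of -0.46 (all genes 4.7% and 31%, median -0.61). A mean FPKM of at least 1, which tests fewer genes, gave 6 of 36 called higher (all genes 10.6%), and an adjusted p alone gave 16 (all genes 21.5%). Summed FPKM gave a total of -0.12.

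In the order library size alone, log2(FPKM + 1) and log2(FPKM + 0.1), the sums of Cyp1a were -0.44, -0.45 and -0.45, of Cyp2c -0.54, -0.51 and -0.51, and of Cyp3a -0.40, -0.42 and -0.42, all reversed. In the same order Cyp1a2 was -0.45, -0.45 and -0.46, Cyp2c70 -0.46, -0.50 and -0.50, Cyp3a11 -0.42, -0.43 and -0.43, Cyp2d26 -0.0254, -0.0755 and -0.0758, and Cyp3a25 -0.65, -0.67 and -0.67. Cyp3a25 was also -0.0104 with DESeq2, -0.0795 with upper quartile factors, -0.0152 without a filter and -0.0898 at a mean FPKM of at least 1. The Cyp2j sum was called at -1.001 and -1.0065 with the 2 limma settings, and the median over its members was 0.93. With these limma settings Cyp2j5 was called lower at -1.12 and -1.13 and Cyp2r1 at -1.15 and -1.42. The Cyp2d sum passed at 0.88 with an adjusted p alone.

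Leaving out each library in turn gave 8 to 11 members called higher and 3 lower (all genes 8.57% to 10.9% higher and 9.88% to 16.5% lower), a median of 0.17 to 0.34, a Cyp2d sum of 0.73 to 1.04 (called without ethanol replicate 3), Cyp3a25 at -0.0773 to 0.17, Cyp2c70 at -0.0623 to 0.43 and Cyp2t4 at 2.71 to 3.97. With the replicate number as a block, 10 members were called higher and 3 lower (all genes 9.08% and 12%), and Cyp3a25 was at -0.0012. Deviations of same-numbered libraries correlated at -0.03, -0.02 and -0.02, so the numbers pair nothing.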

Other observations

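Rows that the naming rule leaves out, chosen after their values were seen, held some of the larger differences. Cyp2e1, the ethanol-oxidizing P450 of the pericentral zone, measured 10566, 10563 and 8729 CPM in ethanol-exposed mice and 3502, 3629 and 3767 CPM in control mice (log2 fold change 1.45, SE 0.13, edgeR adjusted p = 0.000296). It was not called under library size alone (0.79) or with limma on log2(FPKM + 1) (0.78). The pseudogene Cyp2a21-ps measured 13.4, 12.6 and 10.96 CPM against 0.245, 0.564 and 0.862 CPM, and it was called higher (log2 fold change 4.47, edgeR adjusted p = 0.000415). It overlaps Cyp2a22 on the opposite strand and lies far below the level of Cyp2a5. The share of its windows that match Cyp2a5 or other genes was not examined. Cyp3a41b, one of a pair of near-identical genes, was called lower (log2 fold change -3.70, SE 1.18, edgeR adjusted p = 0.0393).

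Outside families 1 to 3, 4 of the 15 Cyp4 genes tested were called higher and 0 lower (all genes 10.4% and 13.8%). They were Cyp4f17 (log2 fold change 2.03), Cyp4a10 (1.34), Cyp4a31 (1.17) and Cyp4a32 (1.01), of which the Cyp4a genes encode fatty acid hydroxylases that respond to PPAR-alpha. Of 12 genes of families 5 to 51, 4 were called higher and 0 lower. Cyp27a1, a sterol hydroxylase of bile acid synthesis, had a log2 fold change of 1.26 (1033 against 431 CPM), and Cyp26a1, which degrades retinoic acid, one of 2.12 (90.6 against 20.8 CPM). Under library size alone, 1 gene was called higher in each list, with 2 lower in the first and 1 in the second (all genes 5.06% and 32.2%).

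Of 7 regulators of growth hormone signalling and sex-biased expression, Socs2, Cish and Cux2 were called higher (log2 fold changes 4.87, 3.37 and 3.47) and Bcl6 lower (-1.06). With limma on log2(FPKM + 1), Socs2 was at 1.97, Cish at 1.13 and Bcl6 at -1.44, all still called. Cux2 was not tested there, because that setting required a mean FPKM of at least 0.1, so its fold change is uncertain. Among 9 P450 genes that predominate in female mouse liver, Cyp2a4 and Cyp2b10 were called higher and Cyp3a41b lower. Among 5 that predominate in males, Cyp2d9 was called higher and Cyp2u1 lower. Under library size alone the female and male lists gave 2 higher with 3 lower and 0 higher with 1 lower (all genes 5.06% and 32.2%).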
